A study of Mus musculus with 6 samples.

Results

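The antioxidant response controlled by the transcription factor NRF2 was examined in 10 genes, chosen by name: Nfe2l2, Keap1, Hmox1, Nqo1, Gclc, Gclm, Txnrd1, Srxn1, Sqstm1 and Osgin1. All 10 were found among the 23337 genes of the count table and all 10 were among the 14222 tested. The cells were primary sinusoidal endothelial cells from mouse liver, purified with antibody-coated magnetic beads and cultured with serum supplement. They were plated on collagen IV and deprived of serum before stretching. The stretch group (replicates 1, 2 and 4) was exposed to 4% cyclic stretch at 1 Hz on a Flexcell device, which pulls on the flexible membrane under the cells, and the control group (replicates 2, 3 and 4) was left unstretched. The duration of stretch, and the strain, sex and age of the mice, were not given in the sources used here. Nothing states that the replicates came from separate isolations, so p-values measure the spread between these samples, which may be technical.

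NRF2, encoded by Nfe2l2, is a basic leucine zipper protein that pairs with small MAF proteins and binds antioxidant response elements near genes of glutathione synthesis, thioredoxin recycling, heme breakdown and quinone reduction. In unstressed cells KEAP1, a sensor with reactive cysteines, hands NRF2 to a CUL3 ubiquitin ligase for destruction, so the pathway is controlled mainly through the stability of the NRF2 protein, which RNA sequencing does not measure. BACH1 competes for the same elements and represses Hmox1 in particular. In endothelium the pathway is best known for its induction by laminar flow and for heme oxygenase 1, which protects the vessel wall.

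Total gene counts were between 58503669 and 68489956 in stretch libraries and between 48948948 and 57923937 in control libraries. Summed endothelial markers (10 genes chosen for sinusoidal endothelium and led by Cdh5) were 10612 to 12061 CPM in stretch libraries and 12371 to 13737 CPM in control libraries. The sum does not show that each of the 10 was abundant, and 7 of them passed as lower after stretch. CPM are counts scaled to a common library size, here with edgeR's TMM factors. Summed hepatocyte markers (10 genes led by Trf, none at 0 in all 6 libraries) were 843, 191 and 175 CPM in stretch replicates 1, 2 and 4 and between 86.7 and 122 CPM in control libraries. Of these markers 9 passed as higher after stretch and stretch replicate 1 stood apart from the other libraries in them. Summed macrophage markers (10 genes led by Cd68, none at 0 in all 6 libraries) were between 142 and 175 CPM in stretch libraries and between 111 and 119 CPM in control libraries, and 7 of the 9 tested passed as higher, while Clec4f, which marks resident liver macrophages, was at 0 in control replicate 3 and at 0.395 CPM or less elsewhere. Stellate cell markers summed to 38.8 to 60.03 CPM in stretch libraries and 43.9 to 51.8 CPM in control libraries, and lymphocyte markers stayed below 1 CPM in sum in each library, with Cd3g and Nkg7 at 0 in all 6. For the sums of endothelial, hepatocyte and macrophage markers the groups did not overlap (p = 0.1 in an exact two-sided permutation test, which 3 against 3 libraries cannot go below; 0.167 after Benjamini-Hochberg adjustment over the 5 sums).

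The promoter windows below are shown because they carry the letters through which NRF2 and the related AP-1 factors are known to read DNA, next to genes that moved in different directions. They cover 250 bases before to 50 bases after an annotated start (RefSeq, GRCm38.p6) and were available for 8 of the 10 genes. The antioxidant response element core was searched as TGACNNNGC and the AP-1 core as TGANTCA, on both strands, and the longer NRF2 and MAF site TGANTCAGC, which contains the AP-1 core, was added after the sequences had been seen. Capitals mark every match. Srxn1 (chr2:152105274-152105573, plus strand), which rose, has AP-1 cores at -102 and -45 relative to the start, the second of them extended to the longer site, and an element core at 28. The second of 3 annotated Txnrd1 starts (chr10:82858956-82859255, plus strand), of a gene that rose, has an element core at -92. Gclm (chr3:122245307-122245606, plus strand), which was not called, has an element core at -134. Osgin1 (chr8:119436897-119437196, plus strand), which fell, has the longer site from -99 with an AP-1 core inside it at -97.
Srxn1: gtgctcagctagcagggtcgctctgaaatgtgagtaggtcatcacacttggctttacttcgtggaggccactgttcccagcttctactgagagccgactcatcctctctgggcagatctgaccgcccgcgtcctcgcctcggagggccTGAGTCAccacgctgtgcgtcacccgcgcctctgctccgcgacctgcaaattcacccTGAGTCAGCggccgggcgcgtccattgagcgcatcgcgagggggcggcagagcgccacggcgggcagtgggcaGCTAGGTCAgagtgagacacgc
Txnrd1: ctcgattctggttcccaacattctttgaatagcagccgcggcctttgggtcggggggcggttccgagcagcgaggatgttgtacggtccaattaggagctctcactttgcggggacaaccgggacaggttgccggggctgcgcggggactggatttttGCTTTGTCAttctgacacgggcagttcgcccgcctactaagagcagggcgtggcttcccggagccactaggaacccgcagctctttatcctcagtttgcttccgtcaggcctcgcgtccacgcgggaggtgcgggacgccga
Gclm: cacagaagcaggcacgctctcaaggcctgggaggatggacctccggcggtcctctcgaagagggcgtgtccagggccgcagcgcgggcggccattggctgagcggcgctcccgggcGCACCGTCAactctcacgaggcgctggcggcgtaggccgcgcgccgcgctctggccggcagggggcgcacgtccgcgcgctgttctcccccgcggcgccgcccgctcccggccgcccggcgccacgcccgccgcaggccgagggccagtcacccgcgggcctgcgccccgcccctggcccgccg
Osgin1: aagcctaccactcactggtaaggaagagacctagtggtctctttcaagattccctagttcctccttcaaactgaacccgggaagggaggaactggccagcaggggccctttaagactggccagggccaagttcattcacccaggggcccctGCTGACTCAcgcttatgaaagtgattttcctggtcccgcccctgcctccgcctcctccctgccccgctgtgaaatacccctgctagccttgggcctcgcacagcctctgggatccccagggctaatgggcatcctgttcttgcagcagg

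These 8 genes had 10 windows, of which 3 were of Txnrd1. The element core was found in 1 window each of 4 of the 8 genes (Nfe2l2, Srxn1, Gclm and Txnrd1) and in 12.4% of all 32851 promoter windows. In Nfe2l2 it read TGACTCCGC at -240. The AP-1 core was present in 2 of the 8 genes and in 7.81% of all windows, and the longer site in the same 2 genes, Srxn1 and Osgin1, and in 1.19% of all windows. Keap1, Nqo1 and Sqstm1 had no match to any of the 3 in these windows. Genes with a match were thus found among those that rose, among those that fell and among those that were not called. The element core and the AP-1 core overlapped each other in 0.454% of all windows. The matches are letters in a short window and say nothing about binding in these cells.

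Stretch divided the 10 genes. Of them 5 rose (Hmox1, Txnrd1, Srxn1, Sqstm1 and Gclc), 3 fell (Keap1, Osgin1 and Nqo1), and Nfe2l2 and Gclm did not pass an adjusted p of 0.05 in edgeR's quasi-likelihood test. Of all 14222 genes tested 44% passed, 21.4% as higher and 22.6% as lower, against 50% and 30% of the 10 genes. Whether these shares set the 10 genes apart was not tested. The 10 genes were chosen with earlier results of these data known, which limits what their shares can show. The log2 fold changes of the 10 genes ran from -0.35 to 0.55 with a median of 0.13, against a median of -0.01 over all genes tested. In CPM, stretch and control libraries were fully apart for 8 of the 10 genes, which were the 8 called, and for 55.9% of all genes tested. Among all called genes the median absolute log2 fold change was 0.41, and the changes of Hmox1, Txnrd1, Srxn1 and Sqstm1 were above it while those of the other 4 called genes were below it. Together the 10 genes took 0.629% to 0.732% of counts in stretch libraries and 0.479% to 0.565% in control libraries. Most of these counts were those of Hmox1, Sqstm1 and Txnrd1, which all rose, so the share does not describe the 10 genes evenly. With library size alone as scaling, called genes over the whole table shifted toward lower (32.7% of them higher, against 48.6% with TMM), and 4 of the 10 genes were then called higher and 4 lower.

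**Figure D1:**
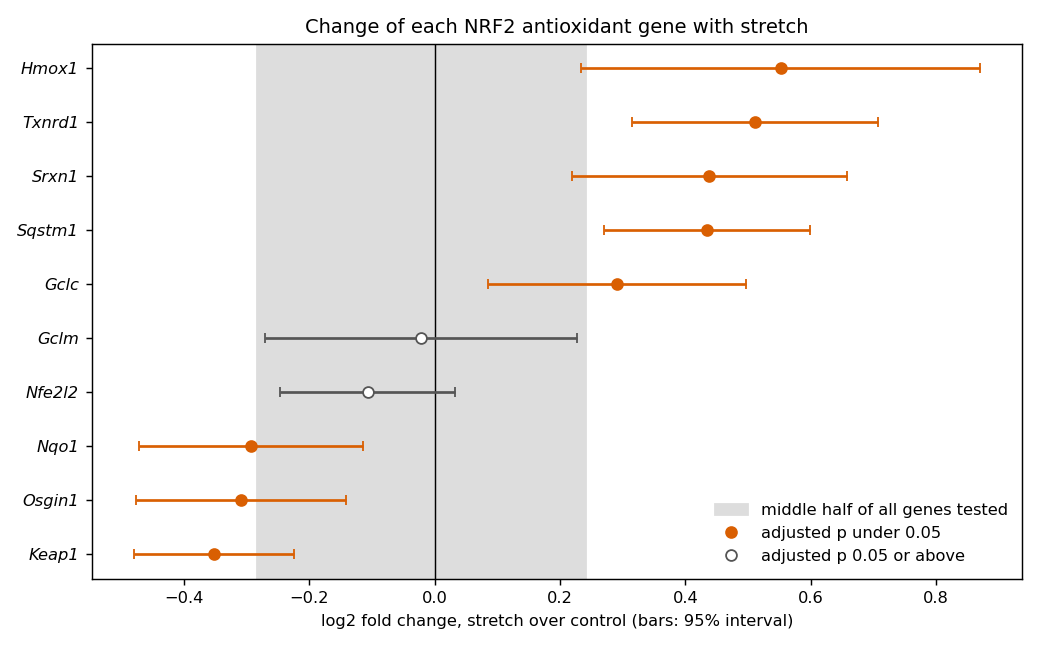
Log2 fold change of each of the 10 genes, stretch over control, with its 95% interval from edgeR's quasi-likelihood fit (n = 3 per group). The grey band is the interquartile range over all 14222 genes tested, from -0.28 to 0.24. Filled points passed an adjusted p of 0.05. Hmox1, Txnrd1, Srxn1, Sqstm1 and Gclc have their points to the right of the band, which the intervals of Hmox1, Srxn1 and Gclc reach into. Keap1, Osgin1 and Nqo1 have theirs to the left of the band, with intervals that reach into it, and Keap1 lies farthest to the left.

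The genes spanned a wide range of abundance. In the authors' deposited RPKM, which divide by the length the table lists for each gene and so can be set side by side between genes, Hmox1 and Sqstm1 ranked 21 and 28 among the 14222 genes tested, by the mean over all 6 libraries. Hmox1 was at 1194 ± 173 RPKM in stretch libraries and 865 ± 126 RPKM in control libraries, and Sqstm1 at 998.7 ± 62.4 and 785 ± 42.6 RPKM (SD, n = 3 per group). These 2 genes overlapped in level within each group. Txnrd1 followed with 278 ± 20.2 RPKM in stretch and 207 ± 18.9 RPKM in control libraries. Srxn1 stood at 183 ± 15.1 RPKM in stretch libraries and 144 ± 16.03 RPKM in control libraries, and Gclm at 166 ± 17.1 and 179 ± 23.3 RPKM. Gclm was therefore above Srxn1 on average in control cells and below it in stretched cells, and the pair overlapped in both groups. Nfe2l2 was at 88.2 ± 1.66 RPKM in stretch and 100.9 ± 6.99 RPKM in control libraries, and Gclc at 48.6 ± 3.91 and 42.2 ± 4.19 RPKM. The least abundant were Osgin1, Nqo1 and Keap1, which in stretch libraries had 23.4 ± 2.14, 13.1 ± 1.49 and 10.2 ± 0.36 RPKM and in control libraries 30.7 ± 1.62, 17.01 ± 0.64 and 13.9 ± 0.65 RPKM. Each of these 3 was apart from its neighbours in the order, as were Gclc and Nfe2l2, whereas the lowest control value of Txnrd1 lay within the range of Gclm. The 3 genes that fell were thus the 3 scarcest of the 10 in both groups.

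**Figure D2:**
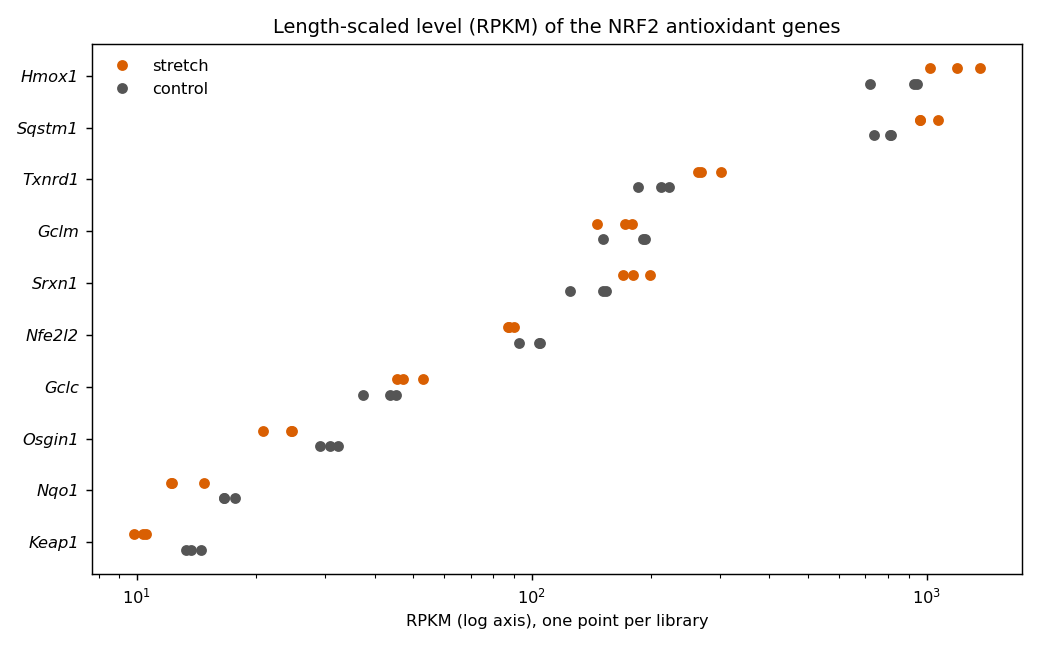
Level of the 10 genes in the authors' deposited RPKM (log axis), one point per library, stretch above control in each row, genes ordered by mean. Hmox1 and Sqstm1 lie highest and overlap each other, and Keap1 lies lowest.

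Of the 2 regulators at the head of the pathway, Keap1 fell and Nfe2l2 was not called. All 10 genes are annotated as protein coding, and coordinates are those of the count table (mm10). Nfe2l2 (chromosome 2, 75675519 to 75704641), which encodes NRF2 itself, had 251, 236 and 241 CPM in stretch replicates 1, 2 and 4 and 277, 239 and 267 CPM in control replicates 2, 3 and 4. Control replicate 3 alone lay within the stretch range, and the other control libraries were above it. Its log2 fold change was -0.11 with a 95% interval of -0.25 to 0.03 (edgeR adjusted p = 0.19). It passed as lower without control replicate 3 (log2 fold change -0.17, edgeR adjusted p = 0.0446), with library size alone (-0.20, adjusted p = 0.0208) and with the replicate number as a block (-0.19, adjusted p = 0.0311). The block fit compares stretch with control only within replicates 2 and 4, because stretch replicate 1 and control replicate 3 have no same-numbered partner. In the deposited RPKM, which are not TMM-scaled, the groups did not overlap, at 86.8 to 90.03 RPKM in stretch and 92.8 to 105 RPKM in control libraries.

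Keap1 (chromosome 9, 21229730 to 21239332), the cytoplasmic inhibitor, fell. It had 49.5, 51.3 and 52.04 CPM in stretch replicates 1, 2 and 4 and 69.6, 64.04 and 61.5 CPM in control replicates 2, 3 and 4. The stretch libraries lay close together and all below the control libraries. The level was 1.28-fold lower in stretched cells (log2 fold change -0.35 ± 0.06 SE, edgeR adjusted p = 0.00134). The ratio of Keap1 to Nfe2l2 within a library, in RPKM and so independent of scaling, was between 0.109 and 0.12 in stretch libraries and between 0.127 and 0.148 in control libraries (exact two-sided permutation p = 0.1, also 0.1 adjusted over the 2 ratios compared).

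Hmox1 (chromosome 8, 75093618 to 75100593) encodes heme oxygenase 1, which breaks heme into biliverdin, iron and carbon monoxide. It had 2124, 1753 and 2426 CPM in stretch replicates 1, 2 and 4 and 1589, 1534 and 1174 CPM in control replicates 2, 3 and 4. All stretch libraries were above all control libraries, but the spread was the widest of the 10 genes, with a coefficient of variation of 16.05% in stretch and 15.7% in control libraries. Hmox1 rose 1.47-fold (log2 fold change 0.55 ± 0.14 SE, edgeR adjusted p = 0.0124), which placed it at position 1458 from the top of the 14222 genes by log2 fold change. Leaving out control replicate 4 or stretch replicate 4 gave smaller values of 0.43 and 0.44 that still passed (edgeR adjusted p = 0.0344 and 0.0492).

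Txnrd1 and Srxn1 repair oxidised thiols: thioredoxin reductase 1 returns thioredoxin to its reduced form, and sulfiredoxin rescues over-oxidised peroxiredoxins. Txnrd1 (chromosome 10, 82833951 to 82897724) had 1198, 1175 and 1362 CPM in stretch replicates 1, 2 and 4, against 909.9, 936 and 774 CPM in control replicates 2, 3 and 4. It rose 1.43-fold with no overlap between groups (log2 fold change 0.51 ± 0.09 SE, edgeR adjusted p = 0.0018) and passed under all 17 alternatives, a minimum fold of 1.2 included. Srxn1 (chromosome 2, 152105730 to 152111353) had 496, 508 and 581 CPM in stretch replicates 1, 2 and 4, against 417.3, 417.3 and 335 CPM in control replicates 2, 3 and 4. Each stretch library again exceeded each control library, and the gene rose 1.36-fold (log2 fold change 0.44 ± 0.10 SE, edgeR adjusted p = 0.00662). By the listed coordinates Eid3 overlaps the Txnrd1 locus over 1304 bases and Bc1 over all 63774. Eid3 had 299 counts per library on average and Bc1 had 1.5, against 41417 to 79753 counts for Txnrd1.

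The 2 subunits of glutamate-cysteine ligase, the rate-limiting enzyme of glutathione synthesis, were called differently, Gclc as higher and Gclm not at all. Gclc (chromosome 9, 77754535 to 77794489), the catalytic subunit, had 205, 176.4 and 175.7 CPM in stretch replicates 1, 2 and 4 and 160.4, 162 and 133 CPM in control replicates 2, 3 and 4. It rose 1.22-fold (log2 fold change 0.29 ± 0.09 SE, edgeR adjusted p = 0.0295), and the nearest libraries of the groups, at 175.7 and 162 CPM, were close. The call was lost without control replicate 4 (log2 fold change 0.20, edgeR adjusted p = 0.079), without stretch replicate 1 (0.22, adjusted p = 0.081) and with library size alone (0.20, adjusted p = 0.08). Gclm (chromosome 3, 122245592 to 122266648), the modifier subunit, had 243, 275 and 297 CPM in stretch replicates 1, 2 and 4 and 299.98, 297 and 231 CPM in control replicates 2, 3 and 4. The stretch values lay within the range of the control values. The log2 fold change was -0.02 with a 95% interval of -0.27 to 0.23 (edgeR adjusted p = 0.891), and its sign changed in 4 of 17 alternatives. The ratio of Gclc to Gclm within a library, in RPKM, was between 0.254 and 0.361 in stretch libraries and between 0.229 and 0.246 in control libraries, so that each stretch library was above each control library (exact two-sided permutation p = 0.1). The highest ratio, 0.361, was that of stretch replicate 1, the library with the most hepatocyte transcripts, and their part in it was not tested.

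Nqo1 and Osgin1, both known targets of NRF2, fell. Nqo1 (chromosome 8, 107388225 to 107403205), which reduces quinones by transfer of an electron pair, had 21.5, 25.04 and 21.3 CPM in stretch replicates 1, 2 and 4 and 29.4, 27.01 and 26.7 CPM in control replicates 2, 3 and 4. It was 1.23-fold lower in stretched cells (log2 fold change -0.29 ± 0.08 SE, edgeR adjusted p = 0.016), with stretch replicate 2 nearest to the control libraries. The call was lost without control replicate 2 (log2 fold change -0.25, edgeR adjusted p = 0.0681) and without stretch replicate 4 (-0.25, adjusted p = 0.0596). Osgin1 (chromosome 8, 119437162 to 119446256), an oxidative stress-induced growth inhibitor known in human endothelium as responsive to flow and NRF2, had 54.3, 52.7 and 46.2 CPM in stretch replicates 1, 2 and 4 and 67.6, 59.5 and 62.7 CPM in control replicates 2, 3 and 4. Every stretch library was below every control library, and the level was 1.24-fold lower (log2 fold change -0.31 ± 0.07 SE, edgeR adjusted p = 0.00934).

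Sqstm1 (chromosome 11, 50200152 to 50210790) encodes p62, a selective autophagy receptor that binds KEAP1 and thereby releases NRF2. It had 2173, 2098 and 2412 CPM in stretch replicates 1, 2 and 4 and 1725, 1696 and 1523 CPM in control replicates 2, 3 and 4. The gap between the groups was wider than the range within either, and the gene rose 1.35-fold (log2 fold change 0.43 ± 0.07 SE, edgeR adjusted p = 0.00164). Like Txnrd1 it passed under all 17 alternatives.

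**Figure D3:**
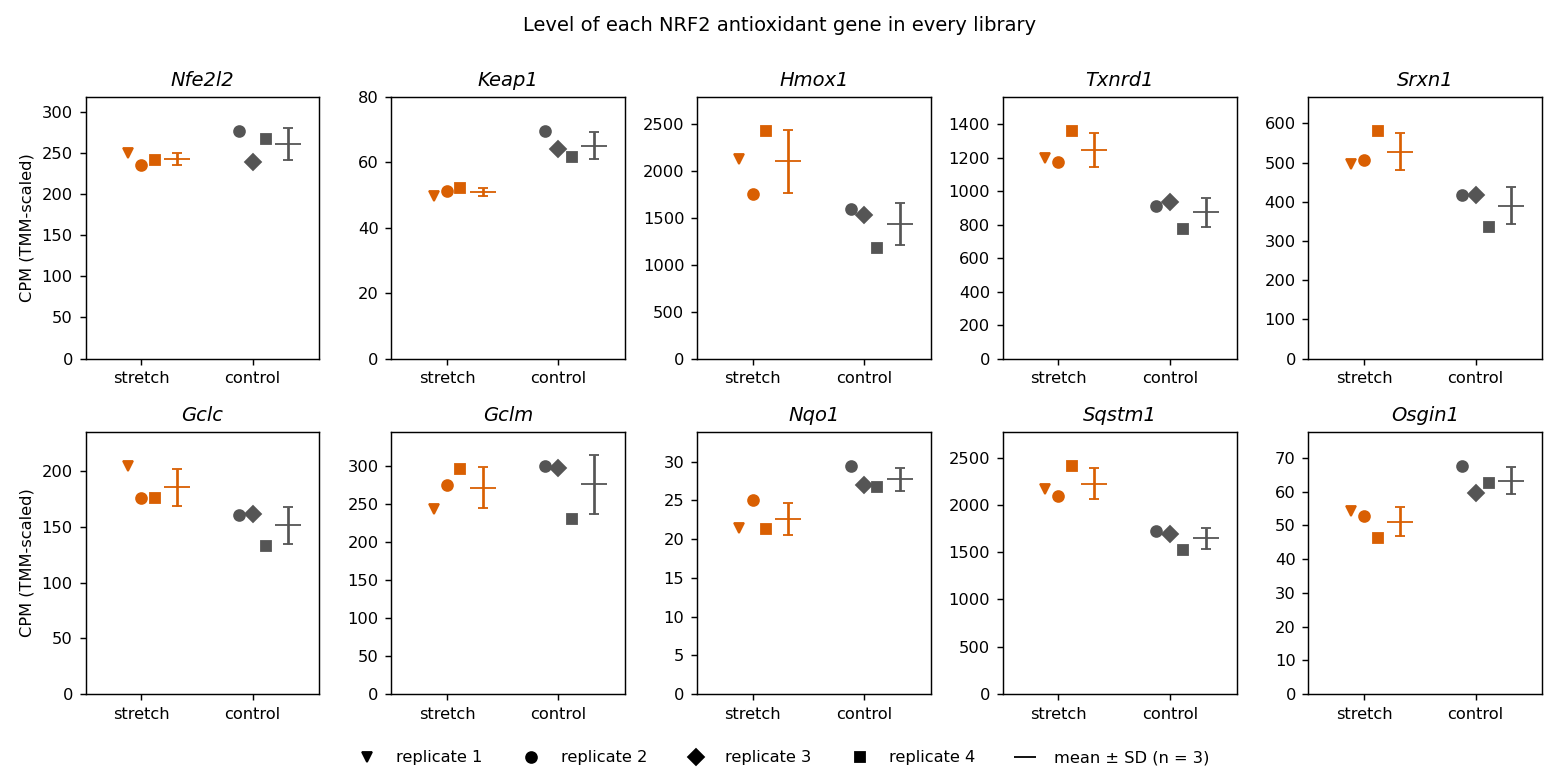
TMM-scaled CPM of each of the 10 genes in every library (axes start at 0), stretch left of control, with mean ± SD beside the points (n = 3 per group) and the marker shape giving the replicate number. The groups are apart for all but Nfe2l2 and Gclm. Control replicate 4 is the lowest control point for 8 genes.

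Libraries differed within groups in a way that many of the genes shared. Control replicate 4 had the lowest control value for 8 of the 10 genes (all but Nfe2l2 and Osgin1), while over all genes tested it was the lowest control library for 33.4%. Control replicate 2 had the highest control value for 7 of the 10, against 34.1% of all genes tested. In the stretch group replicate 4 was highest for 6 (Keap1, Hmox1, Gclm, Txnrd1, Srxn1 and Sqstm1), against 31.3% of all genes tested. Hmox1, Txnrd1, Srxn1 and Sqstm1 had both their lowest value in control replicate 4 and their highest in stretch replicate 4. Without control replicate 4 their log2 fold changes were 0.43, 0.43, 0.34 and 0.38, and without stretch replicate 4 they were 0.44, 0.44, 0.36 and 0.37, and all of these passed. Hepatocyte and macrophage transcripts were highest in stretch replicate 1. In stretch replicate 4, at sums of 175 and 156 CPM, they were also above every control library, and their part in this pattern was not tested.

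Without stretch replicate 1, the log2 fold change was 0.55 for Hmox1, 0.55 for Txnrd1, 0.49 for Srxn1, 0.46 for Sqstm1, -0.33 for Keap1, -0.35 for Osgin1 and -0.25 for Nqo1, and these 7 genes still passed. Hepatocyte and macrophage transcripts were also higher in the other 2 stretch libraries than in the control libraries, and their part in the values of the 10 genes was not tested. In bulk RNA a change in the share of a cell type and a change in RNA per cell cannot be told apart.

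**Figure D4:**
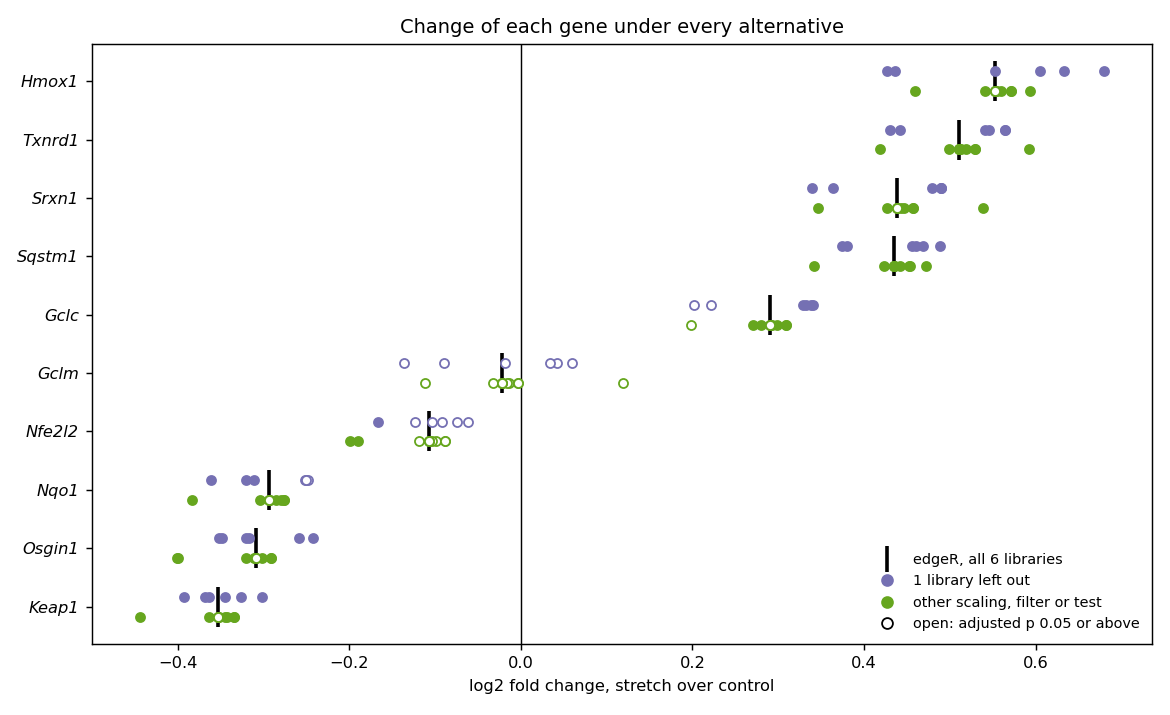
Log2 fold change of each of the 10 genes, stretch over control, under all 17 alternatives. The black bar is the value from all 6 libraries, purple points leave out 1 library, green points use another scaling, filter, test or block, and open points did not pass. Of the 10 genes, Gclm alone has points on both sides of 0.

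The authors' deposited table gives the same directions, with log2 fold changes between -0.35 for Keap1 and 0.55 for Hmox1. In the authors' deposited table the FDR was 3.8e-07 for Txnrd1, 5.95e-07 for Sqstm1, 1.04e-05 for Keap1, 0.000156 for Srxn1 and 0.000697 for Hmox1. Those for Osgin1, Nqo1 and Gclc in the authors' deposited table were 0.0019, 0.0131 and 0.0131, and Nfe2l2 and Gclm had 0.325 and 1.

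The wider pathway was described with 126 other genes in 10 lists, of which 122 were tested. Of these 19 rose (15.6%), 31 fell (25.4%) and 72 did not pass, with a median log2 fold change of -0.03, beside 21.4% higher and 22.6% lower over all genes.

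**Figure D5:**
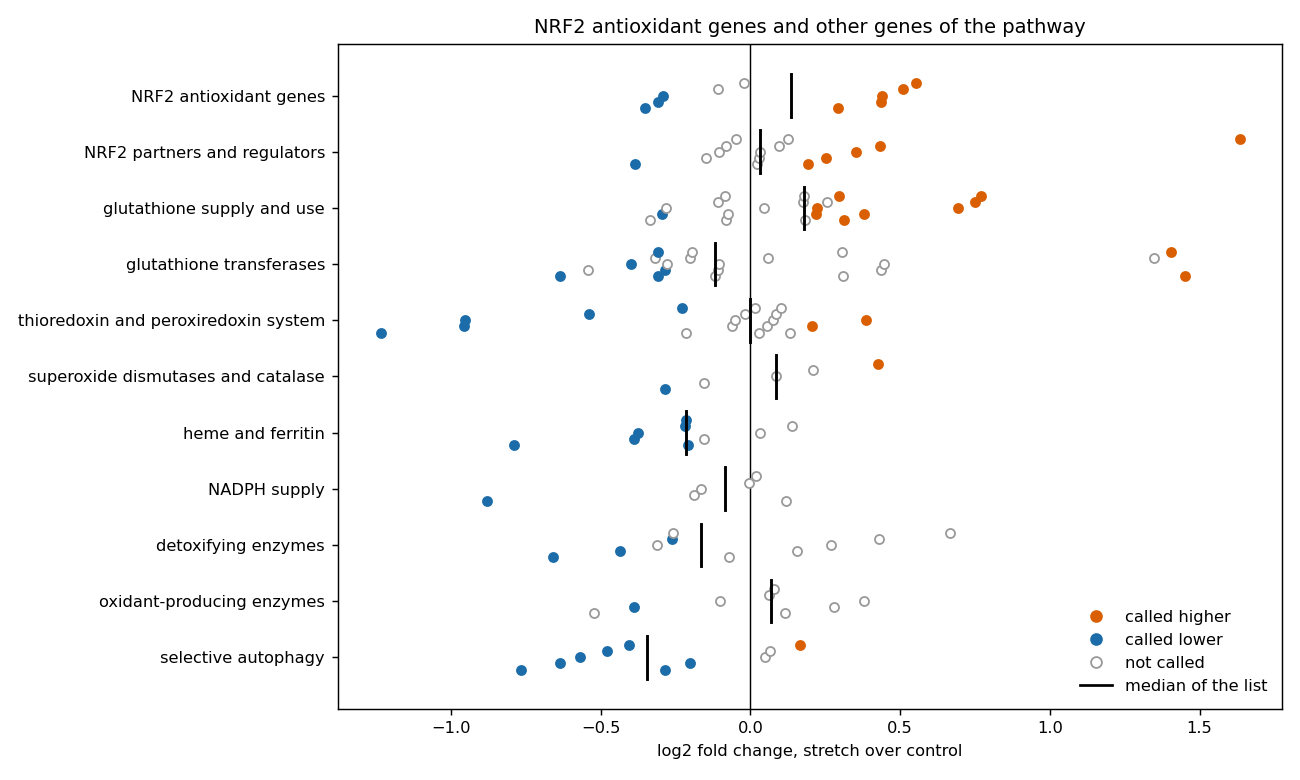
Log2 fold change, stretch over control, of the 10 genes and of 10 lists of other pathway genes, one point per tested gene, coloured by call, with each list's median as a black bar. The point farthest right, at 1.63, is Maff, and the point farthest left, at -1.24, is Sesn1.

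Among 15 partners and regulators of NRF2, 5 rose, 1 fell and 9 did not pass (median log2 fold change 0.03). All 3 small MAF genes, whose products NRF2 and BACH1 need to bind DNA, rose. Maff had 265, 219.5 and 249 CPM in stretch replicates 1, 2 and 4 and 76.9, 76.6 and 82.7 CPM in control replicates 2, 3 and 4, a 3.1-fold rise (log2 fold change 1.63 ± 0.07 SE, edgeR adjusted p = 2.34e-05). Mafk and Mafg rose 1.35-fold and 1.28-fold (edgeR adjusted p = 0.000523 and 0.000394). The other 2 that rose, named after their values were seen, were Cul3, the scaffold of the ligase that KEAP1 serves (log2 fold change 0.25), and the related factor Nfe2l1 (0.19), whose call was lost with library size alone (0.10, edgeR adjusted p = 0.0918). Btrc, which recognises NRF2 for a ligase that works without KEAP1, was the 1 that fell (-0.38), joined by others with library size alone (4 lower) and without control replicate 4 (2 lower). Bach1, the repressor of Hmox1, had 138 ± 3.22 CPM in stretch and 143 ± 15.1 CPM in control libraries (log2 fold change -0.05, edgeR adjusted p = 0.635).

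Of 20 tested genes of glutathione supply and use, 8 rose, 1 fell and 11 did not pass (median log2 fold change 0.18). Chac1, which degrades glutathione, rose, to 14.1 ± 1.63 CPM in stretch libraries, against 8.38 ± 0.77 CPM in control libraries (SD, n = 3 per group; log2 fold change 0.75, edgeR adjusted p = 0.00096). Slc3a2, the heavy chain shared by the cystine importer and other amino acid transporters, rose 1.3-fold and the glutaredoxin gene Glrx3 1.24-fold (edgeR adjusted p = 0.00109 and 0.00133). Slc7a11, the cystine-specific partner of Slc3a2 and a known NRF2 target, did not pass, at a log2 fold change of -0.08 ± 0.07 (SE) and an adjusted p of 0.394 in edgeR. Ggct, Gpx3, Gsr, Gpx1 and Gss were the other 5 that rose. Gpx1 lost its call without control replicate 2, control replicate 4 or stretch replicate 4 (edgeR adjusted p = 0.074, 0.0568 and 0.0691), and Gss without control replicate 2, control replicate 4 or stretch replicate 1 (0.131, 0.112 and 0.0927). With library size alone Gsr, Gpx1 and Gss were not called (edgeR adjusted p = 0.0879, 0.125 and 0.113), and 5 of the 20 genes passed as higher and 4 as lower. Abcc5, an exporter of glutathione conjugates and nucleotides, was the 1 that fell, and without control replicate 4 or stretch replicate 2 there were 2 that fell.

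Glutathione transferases, enzymes that conjugate glutathione to reactive compounds, included 2 higher and 5 lower genes of 21 tested (median log2 fold change -0.12). Gstm2 and Gstt2 fell 1.32-fold and 1.55-fold (edgeR adjusted p = 0.00554 and 0.00748). Gstk1 fell 1.24-fold, and its call was lost without control replicates 2 or 4 and without stretch replicates 1 or 4 (edgeR adjusted p between 0.0569 and 0.07), and with the replicate number as a block (0.064). The 2 that rose were Gsta1 and Gsta2, named after their values were seen. Gsta1 had 17.6, 5.24 and 5.37 CPM in stretch replicates 1, 2 and 4 and 2.25, 5.1 and 3.35 CPM in control replicates 2, 3 and 4. These alpha-class genes are known from hepatocytes and stood highest in stretch replicate 1, without which neither passed (log2 fold change 0.58 and 0.69, edgeR adjusted p = 0.152 and 0.186); the calls were also lost without control replicate 2 (edgeR adjusted p = 0.163 and 0.135) and without control replicate 4 (0.127 and 0.143), and that of Gsta2 without control replicate 3 (0.0582). Gsta1 was not called in DESeq2, in limma-voom, with robust dispersion, with upper-quartile factors or with library size alone (adjusted p between 0.0516 and 0.139). Gsta2 was not called in limma-voom, with library size alone or with the replicate number as a block (adjusted p = 0.101, 0.0552 and 0.071). The number that fell was 3 without control replicate 2 or 4 and 2 without stretch replicate 4. Several members of this family are near-identical copies, so how reads were divided between them is uncertain.

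In the thioredoxin and peroxiredoxin system 2 of 18 genes passed as higher and 5 as lower, with a median log2 fold change near 0; with library size alone the counts were 1 and 8. Sesn1, a sestrin, was 2.35-fold lower at 13.4 ± 2.61 CPM in stretch libraries and 31.6 ± 1.84 CPM in control libraries (edgeR adjusted p = 0.000166). Txnip, which binds and inhibits thioredoxin, fell 1.45-fold (edgeR adjusted p = 0.000343), and Txn2, the mitochondrial thioredoxin, rose 1.31-fold (edgeR adjusted p = 0.00212). Txn1, the substrate of Txnrd1, was the other that rose (log2 fold change 0.21), and lost its call without control replicate 2 (edgeR adjusted p = 0.0545) and with library size alone (0.103). Prdx1, a peroxiredoxin and known NRF2 target, did not pass, at a log2 fold change of 0.10 ± 0.06 (SE) and an adjusted p of 0.227 in edgeR. Of 5 superoxide dismutase and catalase genes, mitochondrial Sod2 rose 1.34-fold (edgeR adjusted p = 0.00373), and Cat fell 1.22-fold (0.0149), a call that was lost without control replicates 2 or 3 (0.0641 and 0.0545).

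While Hmox1 rose, most genes of the heme and ferritin list fell. Of 9 tested, 0 rose, 6 fell and 3 did not pass (median log2 fold change -0.22), and 0 were higher at an unadjusted p under 0.05 in edgeR, DESeq2 or limma-voom. Slc40a1, the iron exporter ferroportin and a known NRF2 target, fell to 295 ± 23.5 CPM in stretch libraries, against 509.5 ± 121 CPM in control libraries (log2 fold change -0.79 ± 0.15 SE, edgeR adjusted p = 0.00305). Fech, which inserts iron to complete heme, fell 1.31-fold, and the transporter gene Abcb6 fell 1.3-fold (edgeR adjusted p = 0.00051 and 0.00269). Fth1 and Ftl1, the ferritin chains, did not pass, at log2 fold changes of 0.14 ± 0.09 and 0.03 ± 0.08 (SE; edgeR adjusted p = 0.253 and 0.771). The other 3 that fell were Blvra, Hmox2 and Slc48a1, all of which lost their calls without control replicate 2 (edgeR adjusted p = 0.0557, 0.0935 and 0.123). Blvra was also lost without control replicate 3 or stretch replicate 4 (edgeR adjusted p = 0.0535 and 0.0569), Hmox2 without control replicate 4 or stretch replicates 2 or 4 (0.0697, 0.0854 and 0.0626), and Slc48a1 without control replicate 3 or stretch replicates 1 or 2 (0.145, 0.158 and 0.0986). With the replicate number as a block Blvra and Slc48a1 were not called (log2 fold change -0.22 and -0.11, edgeR adjusted p = 0.0515 and 0.272), which left 4 of the 9 genes lower. Blvra was not called in DESeq2 either (adjusted p = 0.0541), nor Slc48a1 with RLE factors in edgeR (adjusted p = 0.0642).

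Genes of NADPH supply and of detoxification had 0 members that rose in the edgeR fit without a block, and 0 that were higher at an unadjusted p under 0.05. With the replicate number as a block 1 detoxification gene passed as higher. In DESeq2 1 detoxification gene passed as higher, and 2 did so at an unadjusted p, as did 1 NADPH gene. Of 6 NADPH genes, Idh1 fell 1.84-fold, to 57.4 ± 0.17 CPM in stretch libraries, against 105 ± 5.18 CPM in control libraries (edgeR adjusted p = 3.8e-05), and the other 5 did not pass, although 3 of the 6 were lower with library size alone and 2 without control replicate 4. Me1, a malic enzyme and known NRF2 target, stood at a log2 fold change of 0.12 ± 0.05 (SE) and an adjusted p of 0.101 in edgeR. Of 10 tested detoxifying enzymes, 3 fell: the aldehyde oxidase gene Aox1 1.58-fold, Nqo2, the relative of Nqo1, 1.35-fold, and the epoxide hydrolase gene Ephx1 1.2-fold (edgeR adjusted p = 0.000812, 0.00125 and 0.0188). With library size alone 5 of the 10 were lower. The Ephx1 call was lost without stretch replicate 2 or 4 (edgeR adjusted p = 0.0596 and 0.0634). Among 8 tested genes of oxidant-producing enzymes, xanthine dehydrogenase (Xdh) fell 1.31-fold (edgeR adjusted p = 0.00693) and 7 did not pass. Nox4 had 3.31 ± 1.46 CPM in stretch and 4.76 ± 2.03 CPM in control libraries (edgeR adjusted p = 0.275), and passed as lower with the replicate number as a block (log2 fold change -1.11, adjusted p = 0.00357). The block value rests on replicates 2 and 4. It leaves out stretch replicate 1, the highest stretch library at 4.99 CPM, and control replicate 3, the lowest control library at 3.16 CPM.

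While Sqstm1 rose, 7 of the 10 other autophagy genes fell, 1 rose and 2 were not called (median log2 fold change -0.35). Ulk1, the kinase that starts autophagy, was 1.7-fold lower, at 53.7 ± 2.94 CPM in stretch libraries and 91.4 ± 6.85 CPM in control libraries (edgeR adjusted p = 9.51e-05). Nbr1, an autophagy receptor related to p62, fell 1.39-fold and Calcoco1 1.48-fold (edgeR adjusted p = 0.000661 and 0.000286). Optn was the 1 that rose (log2 fold change 0.16, edgeR adjusted p = 0.0264), and its call was lost without control replicate 3 or 4 and without stretch replicate 1 or 4 (edgeR adjusted p between 0.0593 and 0.0939). It was also lost with library size alone (log2 fold change 0.07, edgeR adjusted p = 0.237) and with the replicate number as a block (0.15, adjusted p = 0.101).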

How the data were processed

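Per the labels and file headers, the authors deposited raw counts per gene for all 6 libraries (TruSeq, total RNA) and a table with RPKM (per kilobase of the length it lists as coding length), a log2 fold change and mean log2 CPM, a likelihood ratio score, and a p-value with its FDR. The submitters' processing notes list the build GRCm38 (mm10) and the tools edgeR, featureCounts and TopHat2 2.1.0. The annotation used and the strandedness were not given in the sources used here. In GENCODE M21, the spans of genes on the opposite strand overlap those of Keap1 (Gm16754), Gclm (Gm17494) and Txnrd1 (Gm38560, Gm47073). Whether their reads were told apart is not known, and overlap of exons was not tested. On the same strand Gclm overlaps the pseudogene Gm6061, Nfe2l2 the snRNA Gm24996 and Txnrd1 Eid3.

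The deposited counts were fitted with edgeR 4.0.16 (R 4.3.3). TMM factors were 0.953 to 0.991 in stretch libraries and 1.02 to 1.045 in control libraries. Genes were filtered with filterByExpr and tested with glmQLFit and glmQLFTest of stretch against control, with Benjamini-Hochberg adjustment over all 14222 genes kept. Genes with an adjusted p under 0.05 were called. SE is the log2 fold change divided by the square root of F. RPKM were described, not tested. Of counts from 1 to 10, 67.2% to 69.9% were even, as when both mates of a pair are counted. Alternatives used DESeq2 1.42.0 and limma 3.58.1 among 17 settings. The steps were tested on simulated data.

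The 10 genes and the lists were chosen with earlier results of these data known. The rule names all 10 genes and, per list, up to 3 called genes with the smallest p, or the 2 smallest where fewer than 2 were called. Every other gene named was chosen after its values were seen. Adgre1 and Msrb1 are in the table as Emr1 and Sepx1. Promoter sequences are from RefSeq, GRCm38.p6.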

Additional observations from a re-analysis of the deposited data

How the results depend on the processing

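Of 170 values (10 genes under 17 alternatives) 152 kept their direction and their side of the threshold. Against a minimum change of 1.2-fold (glmTreat), a stricter question, 2 of the 10 genes passed as higher (Txnrd1 and Sqstm1) and 0 as lower (1 at an unadjusted p under 0.05; 3 passed as lower in DESeq2 against no change), and over all genes 1210 passed as higher and 1327 as lower, where 3040 and 3221 passed against no change. The log2 fold change of Gclm, which never passed, had the other sign with the replicate block (0.12). That fit compares the groups only within replicates 2 and 4. In these Gclm had 275 and 297 CPM in stretch libraries and 299.98 and 231 CPM in control libraries. When single libraries were left out, the value lay between -0.14 and 0.059. The cause of the spread between libraries was not tested. For the 10 lists, 289 of 340 counts stayed within 1.5 times, and of 883 values for the 52 other pathway genes that were called or named by the rule, 102 lost their call and 0 changed sign.

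Both groups have a replicate 2 and a replicate 4, but with 2 pairs and no label of a shared isolation they name samples only. Deviations from the group means correlated at 0.21 and 0.11 across genes for same-numbered pairs and between -0.20 and 0.18 for the others. With the replicate number as a block, the fold changes rest on the 2 same-numbered pairs, and stretch replicate 1 and control replicate 3 add nothing to them. That fit called 5568 genes, against 6261 without the block, and of the 10 genes only Nfe2l2 changed its call (log2 fold change -0.19). Every one of the 10 genes had at least 1196 counts in each library.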
